A study of Mus musculus with 9 samples.

Results

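Transcripts of 10 secreted signals that stromal cells are known for were followed in mouse dental papilla cells: the chemokines Ccl2, Ccl7, Cxcl1, Cxcl5, Cxcl10, Cxcl12 and Cxcl14, and the cytokines Il6, Lif and Csf1. They were chosen by name, and all 10 were found among the 53353 entries of the count table. Of these, 8 could be measured, and 7 passed the low-count filter that left 15675 genes for testing. Reads per gene were counted in 9 RNA-seq libraries of dental papilla cells from C57BL/6 mice, 3 libraries each of primary cells, of monolayer cells on plates and of spheres in a 3-dimensional culture. The labels name no transgene, deletion or drug in any group, and they state no ages. Cells on plates received medium with 2% serum and 1% growth supplement, whereas spheres were started from cells at passage 2 on low-attachment plates, in basal medium thickened with methylcellulose. Format and medium thus changed together and cannot be told apart. For the monolayer, the sample sources give 8 days of culture and the growth protocol 14; for spheres both give 8. The series text lists a passage 2 group where the samples are labelled primary.

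Chemokines are small secreted proteins that attract cells carrying matching G protein-coupled receptors. CSF1 is the growth factor on which macrophages and osteoclast precursors depend, and in the tooth germ it is known for its part in eruption. IL-6 and LIF both signal through the shared receptor chain gp130 and the transcription factor STAT3, and CXCL12 is the signal by which mesenchymal cells of the marrow hold blood stem cells in place.

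Libraries held 35957376 to 52047254 counts. Levels are given as CPM (counts per 1000000 library counts), scaled by trimmed mean of M-values (TMM), with factors of 1.065 to 1.082 for the primary and sphere groups and 0.8614 to 0.8817 for the monolayer group. Of 12 dental mesenchyme markers, 11 passed the filter; their summed level was 5519 to 5535 CPM in the primary group, 6901 to 7023 CPM in the monolayer group and 3370 to 3462 CPM in the sphere group. Much of this sum was Vim, the intermediate filament gene, at 3284 ± 10.3, 4497 ± 54.1 and 1277 ± 6.55 CPM. Without Vim the sums were 2224 to 2254, 2420 to 2468 and 2100 to 2179 CPM. Against primary cells 4 of the 11, Msx1, Msx2, Dlx2 and Prrx1, rose in spheres and 7 fell, beside 38.9% and 40.6% of all genes. The twelfth, Dlx1, lies wholly inside another gene and was listed at 0. Tests were edgeR quasi-likelihood F-tests over all genes with Benjamini-Hochberg adjustment, called at an adjusted p of 0.05. The labels do not name separate animals or cultures, so the p-values measure only the spread between libraries, which may be technical. Because the table counts whole gene spans, introns included, levels are compared between groups and not between genes.

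Ccl2 and Cxcl10 could not be measured. Ccl2 (GRCm38 chr11:82035571-82037453, plus strand), which encodes the main attractant of monocytes, lies wholly inside Gm17268 on the other strand and was listed at 0 in all 9 libraries. Cxcl10 (chr5:92346638-92348889, minus strand), an interferon-induced attractant of T cells, lies wholly inside Art3 and was listed at 0 as well. In this table all 776 protein-coding genes that lie wholly inside a gene of the opposite strand had at most 3 counts over the 9 libraries, against 31.8% of the 11974 that overlap no gene. Gm17268 itself had 1 count and Art3 38 counts. No level is therefore given for either member. The other 8 members are protein-coding genes that overlap no other gene, and at most 0.871% of the 31-base words in their transcripts occur in transcripts of another gene.

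The upstream sequences of 7 members were matched by symbol in RefSeq (GRCm38.p6). The 250 bases before the start of 4 of them are shown, 5′ to 3′ on the strand of the gene. Csf1, Cxcl1 and Il6 are shown because they are measured members that hold the core letters of a κB site, to which NF-kB binds, and Cxcl12 because it is the member with none of the motifs searched. Capitals mark matches on either strand to GGNNTTTCC (the κB core), GAAANNGAA (the core of an interferon-response element) or TGANTCA (an AP-1 site).
Csf1 (chr3:107760470-107760719, minus strand): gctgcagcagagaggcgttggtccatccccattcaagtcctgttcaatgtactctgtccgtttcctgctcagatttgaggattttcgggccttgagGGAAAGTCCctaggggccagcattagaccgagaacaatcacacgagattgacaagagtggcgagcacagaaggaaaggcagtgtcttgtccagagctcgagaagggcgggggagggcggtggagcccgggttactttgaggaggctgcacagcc
Cxcl1 (chr5:90890995-90891244, plus strand): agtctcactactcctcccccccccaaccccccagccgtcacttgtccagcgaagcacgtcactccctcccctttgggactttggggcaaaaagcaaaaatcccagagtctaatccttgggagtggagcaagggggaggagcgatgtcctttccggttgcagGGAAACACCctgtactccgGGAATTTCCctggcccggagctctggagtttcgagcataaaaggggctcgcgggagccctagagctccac
Il6 (chr5:30012864-30013113, plus strand): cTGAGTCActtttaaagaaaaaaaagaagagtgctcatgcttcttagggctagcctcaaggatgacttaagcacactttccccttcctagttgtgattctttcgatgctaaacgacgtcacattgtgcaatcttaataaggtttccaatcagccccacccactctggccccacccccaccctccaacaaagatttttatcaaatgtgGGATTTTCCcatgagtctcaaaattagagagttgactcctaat
Cxcl12 (chr6:117168285-117168534, plus strand): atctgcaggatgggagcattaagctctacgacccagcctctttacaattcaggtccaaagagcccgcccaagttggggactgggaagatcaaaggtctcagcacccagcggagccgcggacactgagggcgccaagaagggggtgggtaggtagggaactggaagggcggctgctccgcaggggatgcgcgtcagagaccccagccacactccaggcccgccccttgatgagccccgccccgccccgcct
GGNNTTTCC begins 154 bases before the start in Csf1, 89 and 70 bases before it in Cxcl1, and 43 bases before it in Il6, and was also found in Cxcl10. It occurs in 4.93% of 32851 mouse windows of the same length. GAAANNGAA was found in Cxcl10 and Cxcl14 and in 7.13% of all windows, and TGANTCA in Cxcl10, Il6 and Lif and in 6.75%. The hypoxia-response letters ACGTG were found in Cxcl1 and in 16.6% of windows, and TATAAA in none of the 7 members and in 12.4% of windows. The longer NF-kB consensus, which overlaps GGNNTTTCC, was found in Csf1, Cxcl1, Cxcl10 and Il6 and in 3.9% of windows. These are matches of letters, and no binding was measured.

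The growth factor gene Csf1 (chr3:107741048-107760469, minus strand) fell in both cultures, and fell furthest in spheres. Its level was 1094, 1055 and 1095 CPM in the primary libraries, 454, 436 and 458 CPM in monolayer, and 16.1, 16 and 16 CPM in spheres. The 3 groups lay far apart and did not overlap. Spheres were 67.5-fold below primary cells (log2 change -6.08 ± 0.039 SE, adjusted p = 3.38e-35) and 28.1-fold below monolayer (-4.81 ± 0.038, adjusted p = 1.22e-33). Monolayer was 2.41-fold below primary cells (-1.27 ± 0.03, adjusted p = 1.44e-22). In bulk libraries such as these, fewer cells of a type and less RNA per cell cannot be told apart.

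Cxcl12 (chr6:117168535-117181367, plus strand) fell in spheres to about the same extent against either other group. It stood at 110, 110 and 108 CPM in primary cells, 112, 114 and 114 CPM in monolayer, and 9.57, 11 and 11 CPM in spheres. All 3 sphere libraries were far below the other 6. The fall was 10.7-fold against monolayer (log2 change -3.42 ± 0.048 SE, adjusted p = 1.69e-28) and 10.4-fold against primary cells (-3.37 ± 0.047, adjusted p = 2.93e-28). Between monolayer and primary cells the difference was 0.05 on the log2 scale (95% interval -0.03 to 0.12, adjusted p = 0.286) with TMM scaling, but -0.25 (adjusted p = 2.32e-06) when libraries were scaled by their total counts.

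Cxcl14 (chr13:56288643-56296551, minus strand), a chemokine made by many epithelia and fibroblasts, was high in primary cells and low in both cultures. Primary libraries gave 6.68, 6.04 and 7.05 CPM, monolayer libraries 0.288, 0.225 and 0.344 CPM, and spheres 0.489, 0.78 and 0.699 CPM. The groups did not overlap, and spheres lay between the others. Monolayer was 23.1-fold below primary cells (log2 change -4.52 ± 0.21 SE, adjusted p = 1.63e-16), and spheres 10.1-fold below (-3.30 ± 0.17, adjusted p = 1.23e-15). Spheres exceeded monolayer by 1.22 ± 0.29 on the log2 scale (adjusted p = 0.000431), a change that did not pass the test for more than 2-fold (adjusted p = 0.268).

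The neutrophil attractant Cxcl1 (chr5:90891241-90893115, plus strand) was also highest in primary cells. Its level was 1.66, 1.12 and 1.35 CPM there, 0.133, 0.125 and 0.0793 CPM in monolayer, and 0.129, 0.175 and 0.11 CPM in spheres. Every cultured library was below every primary library, and the cultures overlapped each other. The fall was 12.2-fold in monolayer (log2 change -3.56 ± 0.39 SE, adjusted p = 7.98e-09) and 9.94-fold in spheres (-3.28 ± 0.36, adjusted p = 6.88e-09). Cxcl1 passed the low-count filter only through primary cells, the group where it is high, so both falls are a description. The cultures differed by 0.28 (95% interval -0.84 to 1.40, adjusted p = 0.646), on only 14 counts in monolayer and 20 in spheres.

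Of the epithelial keratins listed, Krt5, Krt14, Krt8 and Krt18 were highest in primary cells, as Cxcl14 and Cxcl1 were, and Krt19 was highest in spheres. Krt14 was at 113 ± 2.43 CPM (SD, n = 3) in the primary group, 0.296 ± 0.0897 CPM in the monolayer group and 7.25 ± 0.364 CPM in the sphere group, and Krt5 at 57.6 ± 2.07, 0.175 ± 0.06 and 2.4 ± 0.107 CPM. Krt19 was at 0.357 ± 0.0356, 0.0462 ± 0.0444 and 0.978 ± 0.024 CPM. The summed level of 10 epithelial markers was 219 to 224 CPM in the primary group, 3.3 to 4.28 CPM in the monolayer group and 575 to 587 CPM in the sphere group. Most of the sphere sum was the enamel-matrix gene Ambn, at 524 ± 6.22 CPM. Without Ambn the sums were 182 to 187, 1 to 1.33 and 53.3 to 57.6 CPM. Epcam made up most of what then remained in spheres, at 2.87 ± 0.366, 0.0255 ± 0.025 and 42.9 ± 1.8 CPM in the 3 groups. All 9 epithelial markers tested fell in monolayer against primary cells, where 36.9% of all genes were called lower. In spheres 3 rose and 6 fell against primary cells, beside 38.9% and 40.6% of all genes. Amelx, which lies wholly inside another gene, was listed at 0. The part of epithelial cells in these chemokine levels was not tested.

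Cxcl5 (chr5:90759360-90761624, plus strand), another ligand of the neutrophil receptor CXCR2, was absent from the monolayer counts. The primary libraries held 9, 17 and 14 counts (0.189, 0.334 and 0.281 CPM), the monolayer libraries 0 counts each, and the sphere libraries 11, 10 and 16 counts (0.283, 0.195 and 0.294 CPM). Primary cells and spheres overlapped, and the monolayer lay below both. Against a floor of 3 counts over the monolayer group, which is 0.0244 CPM, primary cells were at least 11-fold higher (adjusted p = 1.88e-05) and spheres at least 10.5-fold higher (adjusted p = 1.98e-05). Spheres and primary cells differed by -0.07 (95% interval -1.01 to 0.87, adjusted p = 0.896). The floor covers counting error only, as do the exact binomial intervals given for ratios of counts, whereas intervals of log2 changes include the spread between libraries.

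Ccl7 (chr11:82045712-82047525, plus strand), which attracts monocytes through CCR2 and also binds CCR1 and CCR3, fell in spheres. Its level was 0.754, 0.648 and 1.1 CPM in primary cells, 0.643, 0.374 and 0.529 CPM in monolayer, and 0.18, 0.0195 and 0.0368 CPM in spheres. The spheres lay below all other libraries on 7, 1 and 2 counts, and the first sphere library stood above the other 2. Spheres were 6.54-fold below monolayer (log2 change -2.84 ± 0.55 SE, adjusted p = 4.91e-05) and 10.6-fold below primary cells (-3.52 ± 0.51, adjusted p = 6.98e-07). Without the first sphere library these changes were -4.07 and -4.75. Monolayer against primary cells gave -0.69 (95% interval -1.46 to 0.08, adjusted p = 0.103). That difference passed the threshold when libraries were scaled by total counts (-0.98, adjusted p = 0.0199), and when the monolayer and primary groups were fitted without the spheres (-0.68, adjusted p = 0.0456).

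Lif (chr11:4257557-4272514, plus strand), a cytokine known for keeping mouse embryonic stem cells undifferentiated, had the smallest of the 6 member changes called in spheres against primary cells. Its level was 3.1, 3.9 and 3.63 CPM in primary cells, 3.3, 2.97 and 3.09 CPM in monolayer, and 2.91, 2.12 and 2.78 CPM in spheres. Primary cells and monolayer overlapped, and the spheres lay just below both. Spheres were 1.36-fold below primary cells (log2 change -0.45 ± 0.15 SE, adjusted p = 0.00625). Without the second sphere library the change was -0.32 and the call was lost (adjusted p = 0.0537). Spheres against monolayer gave -0.27 (95% interval -0.58 to 0.04, adjusted p = 0.103) with TMM scaling and 0.03 with total counts. Monolayer against primary cells gave -0.18 (-0.48 to 0.11, adjusted p = 0.262) with TMM scaling and -0.48 (adjusted p = 0.00441) with total counts.

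Il6 (chr5:30013114-30019981, plus strand), the name-giving cytokine of its family, was too low to pass the filter. It had 1, 2 and 0 counts in primary cells, 4, 6 and 5 counts in monolayer, and 0 in each sphere library. The monolayer libraries were the highest, at 0.0886, 0.15 and 0.132 CPM. Over the groups, 15 monolayer counts against 3 primary counts gave a ratio of 6.03 (95% exact binomial interval 1.71 to 32.5), and monolayer was at least 5.88-fold above the floor in spheres. In a fit without the filter, spheres against monolayer passed the threshold (adjusted p = 0.00322) and monolayer against primary cells did not (adjusted p = 0.0968).

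**Figure D1:**
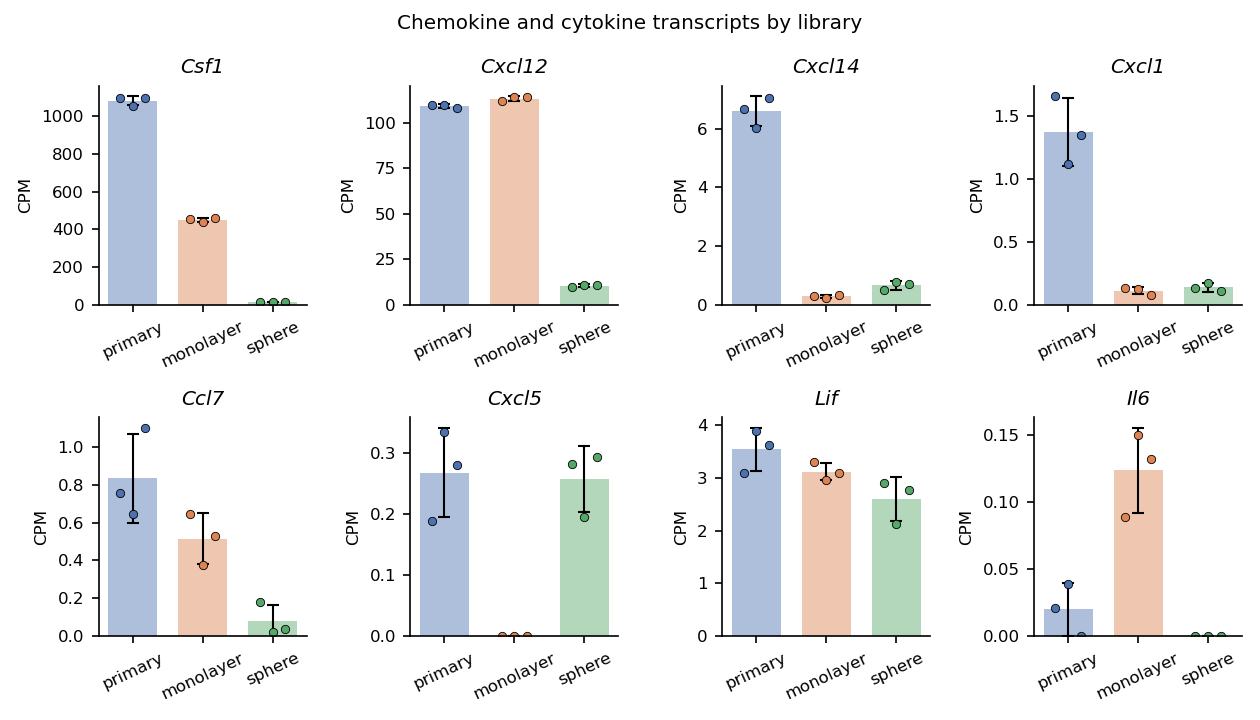
Level of 8 members in each library, in CPM on a linear axis from 0 (a separate scale per gene); points are libraries, bars are means and whiskers are SD of 3 libraries. Csf1 and Cxcl12 are near the axis in spheres, Cxcl14 and Cxcl1 are near it in both cultures, Cxcl5 is at 0 in monolayer, and Lif spans 2.12 to 3.9 CPM over all 9 libraries.

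The members' changes were read against a background in which most genes passed the test. Against primary cells, spheres had 6 of the 7 tested members lower and 0 higher, when 79.6% of all genes were called, 38.9% higher and 40.6% lower. Of these members, 5 were lower by more than 2-fold and 0 higher, a test that 27.7% of genes passed, 11.3% upward and 16.5% downward. The median member change was -3.30 on the log2 scale, beside -0.02 over all genes tested. Monolayer against primary cells had 4 members lower, each by more than 2-fold, and 0 higher. There 71.3% of all genes were called, 34.4% higher and 36.9% lower, and 14.0% passed the test for more than 2-fold, 6.18% upward and 7.82% downward. The median was -1.27 for the members and -0.03 for all genes. Under total-count scaling all 7 members were called lower in that comparison, and the share of called genes that were higher went from 48.2 to 25.6%. Spheres against monolayer had 2 members higher (Cxcl5 and Cxcl14) and 3 lower (Csf1, Cxcl12 and Ccl7), when 78.4% of genes were called, 40.7% higher and 37.7% lower. Cxcl5 was higher and these 3 lower by more than 2-fold, when 28.0% of genes passed that test, 12.6% upward and 15.4% downward. The median was -0.27 for the members and 0.04 for all genes. Total-count scaling moved the share of called genes that were higher from 51.9 to 67.4%. The 3 comparisons share libraries, so they are not independent of each other. A gene that passes the filter only through the group where it is high had to differ, as Cxcl1 did between primary cells and both cultures. Cxcl5, with 0 counts in monolayer, likewise passed without that group. These counts thus describe the 7 tested genes and not all 10, and they support nothing further.

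**Figure D2:**
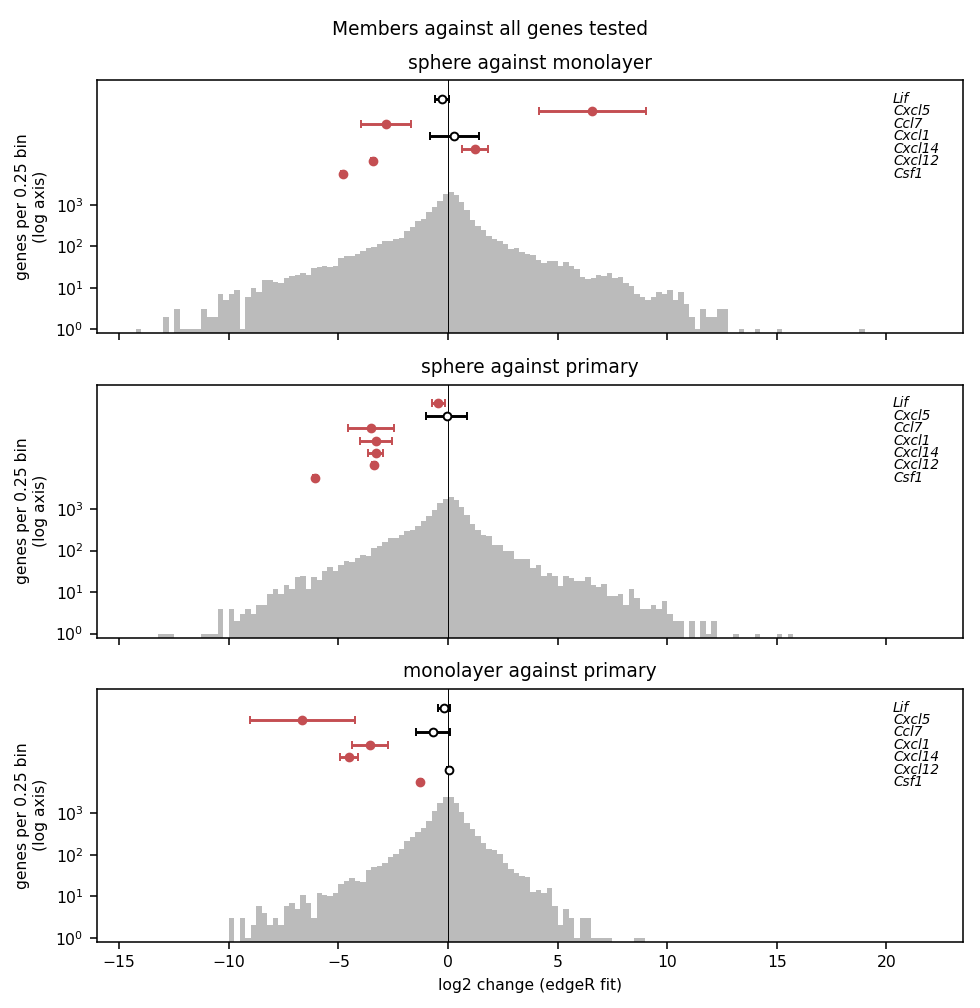
Log2 change (x axis) of the 7 tested members, as points with 95% intervals, above the histogram of all 15675 genes tested (log axis, genes per bin), for each comparison; filled red points passed the test and open points did not. No filled point lies right of 0 in either comparison with primary cells, whereas Cxcl5 and Cxcl14 lie right of 0 for spheres against monolayer. Fitted values of Cxcl5 against the monolayer, which had 0 counts, depend on the prior count.

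The CXCL12 receptors went in opposite directions in spheres. Cxcr4, the signalling receptor, was at 0.298 ± 0.0926 CPM (SD, n = 3) in the primary group, 0.0255 ± 0.025 CPM in the monolayer group and 2.24 ± 0.297 CPM in the sphere group. It rose 7.52-fold in spheres against primary cells (adjusted p = 1.05e-09). Against the 3 counts of the monolayer group the ratio was 91.1 (95% exact binomial interval 30.9 to 444). Cxcr4 passed the low-count filter only with the spheres, the group where it is high, so both rises are a description. Ackr3, which takes up CXCL12 without G protein signalling, was at 137 ± 2.5, 136 ± 1.96 and 43.6 ± 1.31 CPM in primary cells, monolayer and spheres. Its fall in spheres was -1.65 ± 0.037 on the log2 scale against primary cells (adjusted p = 7.24e-24) and -1.64 ± 0.037 against monolayer (adjusted p = 7.72e-24). Monolayer and primary cells differed by -0.01 in Ackr3 with TMM scaling (adjusted p = 0.765) and by -0.31 with total counts (adjusted p = 2.72e-08).

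Of the receptors for inflammatory chemokines, all but Ccr1 and Ackr1 had too few counts to be tested. Ccr1, a receptor of CCL7, was at 0.127 ± 0.0743 CPM in the primary group, 0.0166 ± 0.0288 CPM in the monolayer group and 1.78 ± 0.0798 CPM in the sphere group. It rose 14.1-fold in spheres against primary cells (adjusted p = 1.71e-09). Ccr1 passed the low-count filter only through the spheres, the group where it is high, so this rise is a description. Ccr2, the monocyte receptor for CCL2 and CCL7, had 23 counts in spheres and 0 in both other groups and was not tested; spheres were at least 7.87-fold above the floor in primary cells. Cxcr2 had 2 counts over all libraries, Cxcr3 had 3 counts, Ccr3 was listed at 0, and the scavenger receptor Ackr2 had 38 counts and was not tested. Ackr1, which binds many inflammatory chemokines on venules and red cells, was at 16.5 ± 0.28 CPM in primary cells and 6.32 ± 1.16 CPM in monolayer and was not counted in spheres. Spheres were thus at least 793-fold below primary cells (adjusted p = 6.20e-21) and at least 305-fold below monolayer (adjusted p = 5.46e-18). Ackr1 shares 26.4% of its span with another gene.

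Cytokine receptors were spread over all groups. Lifr, the binding chain for LIF, was at 27.4 ± 1.23 CPM in the primary group, 21.6 ± 0.63 CPM in the monolayer group and 193 ± 2.91 CPM in the sphere group, 7.04-fold above primary cells (log2 change 2.82 ± 0.041 SE, adjusted p = 6.20e-28). Il6st, which encodes gp130, was at 205 ± 1.23, 302 ± 6.67 and 139 ± 0.422 CPM. It fell in spheres by 0.56 against primary cells and by 1.12 against monolayer on the log2 scale (adjusted p = 7.76e-15 and 1.19e-21). Il6ra, the IL-6 binding chain, was at 13.3 ± 0.443, 31.8 ± 1.32 and 19.5 ± 0.751 CPM and highest in monolayer. Csf1r, the CSF1 receptor of macrophages and osteoclast precursors, was at 2.82 ± 0.0706, 3.87 ± 0.626 and 1.64 ± 0.237 CPM. It fell in spheres by 0.77 against primary cells (adjusted p = 0.00012). Its difference between monolayer and primary cells was 0.45 with TMM scaling (adjusted p = 0.00896) and 0.16 with total counts (adjusted p = 0.352). Of the 13 receptors listed, 8 were tested. In spheres 3 rose and 5 fell against monolayer, and 4 rose and 4 fell against primary cells. Monolayer against primary cells gave 3 higher and 4 lower, or 2 and 5 with total counts. With TMM scaling the shares of all genes called higher and lower were 40.7 and 37.7%, 38.9 and 40.6%, and 34.4 and 36.9%. These counts include Ccr1 and Cxcr4, which entered the test only with the spheres, where they are high.

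Most macrophage and leukocyte markers tested were higher in spheres than in primary cells, as Ccr1 and Cxcr4 were, whereas Cd14 and Mrc1 were lower there, as Csf1r was. The summed level of 15 such markers, Csf1r among them, was 31.9 to 35 CPM in the primary group, 15 to 16.9 CPM in the monolayer group and 54.8 to 57.9 CPM in the sphere group. C1qa was at 1.78 ± 0.221, 0.103 ± 0.0669 and 2.58 ± 0.284 CPM, and Lyz2 at 12.4 ± 0.562, 3.08 ± 0.0635 and 27.4 ± 0.611 CPM. Without Lyz2 the sums were 20 to 22.4, 11.9 to 13.8 and 27.3 to 29.9 CPM. Cd14 was at 4.63 ± 0.199, 5.11 ± 0.621 and 2.58 ± 0.445 CPM, and Mrc1 at 1.79 ± 0.491, 0.306 ± 0.0455 and 1.14 ± 0.165 CPM. Of 12 tested, 9 rose and 3 fell in spheres against primary cells, and 1 rose and 10 fell in monolayer against primary cells, or 0 and 10 with total counts. With TMM scaling the shares of all genes called higher and lower were 38.9 and 40.6% in spheres, and 34.4 and 36.9% in monolayer. Ptprc passed the low-count filter only with the spheres, the group where it is high. C1qa, C1qb, C1qc, Tyrobp, Itgam and Adgre1 passed it without the monolayer, where they are low. The counts of markers are thus a description. Among untested markers, Fcgr1 was at 0 in monolayer and had 11 counts in spheres, and Aif1 had 24, 27 and 2 counts in the 3 groups. Neutrophil markers summed to at most 0.487 CPM in any library and none was tested, with Ly6g at 0 throughout. The 8 endothelial markers summed to 14.6 to 16.7 CPM in the primary group, 28.9 to 30.2 CPM in the monolayer group and 5.17 to 5.57 CPM in the sphere group, where Cdh5 and Tie1 were at 0. Most of the monolayer sum was Kdr, at 27.5 ± 0.607 CPM, and most of the sphere sum was Vwf, which rose from 0.467 ± 0.127 CPM in primary cells to 4.13 ± 0.279 CPM in spheres. Without Kdr the sums were 2.14 to 2.61, 1.79 to 2.02 and 4.7 to 5.17 CPM. The part of these cells in the receptor and chemokine levels was not tested.

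**Figure D3:**
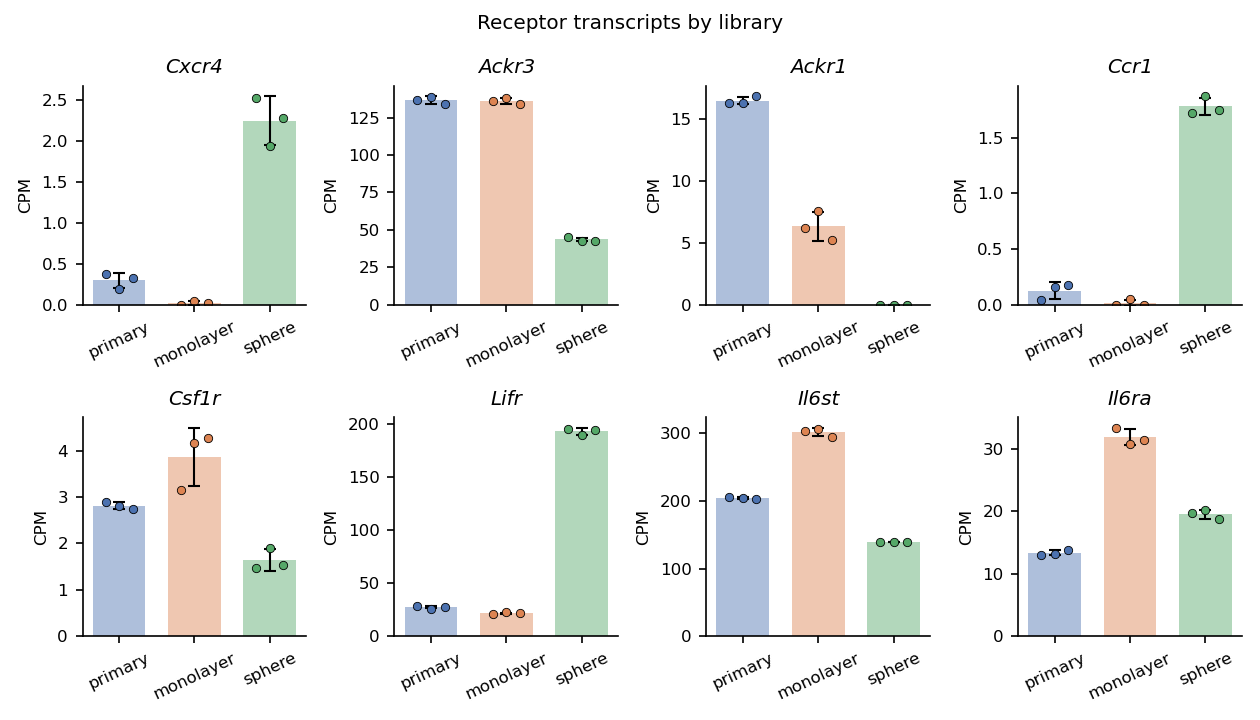
Level of 8 receptor genes in each library, in CPM on a linear axis from 0 (a separate scale per gene); points are libraries, bars are means and whiskers are SD of 3 libraries. Cxcr4, Ccr1 and Lifr are highest in spheres, Ackr3 and Csf1r are lowest there, and Ackr1 is at 0 there.

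Chemokine genes sit in clusters, and the 3 genes that follow Cxcl5 had at most 1 count in monolayer, where Cxcl5 had 0. In order on chromosome 5 follow Cxcl5, Ppbp (chr5:90768518-90770063), Pf4 (chr5:90772435-90773383) and Cxcl3 (chr5:90786103-90789600), then Cxcl15, Cxcl1 and Cxcl2 (chr5:90903871-90905938). Ppbp, which encodes the platelet chemokine CXCL7, had 384 counts in the primary group, 0 in the monolayer group and 96 in the sphere group. Pf4, which encodes platelet factor 4, had 81 counts in the primary group, 1 in the monolayer group and 152 in the sphere group. Cxcl3 had 38, 0 and 8 counts and Cxcl2 had 9, 0 and 9, and neither passed the filter. Cxcl15 had 1 count in all. Monolayer was at least 106-fold below primary cells in Ppbp (adjusted p = 1.79e-13), and spheres at least 27.2-fold above monolayer (adjusted p = 1.80e-09). Pf4 rose in spheres against primary cells by 0.96 ± 0.32 on the log2 scale (adjusted p = 0.00934), whereas Ppbp fell by 1.96 ± 0.22 (adjusted p = 2.05e-08). Of the 12 macrophage and leukocyte markers tested, 10 were lower in monolayer than in primary cells, where 36.9% of all genes were called lower. Several of these markers passed the low-count filter without the monolayer. The part of macrophages and leukocytes in these chemokine counts was not tested.

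Ccl8 and Cxcl9, neighbours of Ccl7 and Cxcl10, were highest in the monolayer. Ccl8 (chr11:82115185-82116799), a monocyte attractant in the cluster of Ccl7, was not counted in primary cells and was at 1.33 ± 0.102 CPM (SD, n = 3) in monolayer and 0.0734 ± 0.0322 CPM in spheres. Monolayer was at least 66-fold above the floor of primary cells, and spheres differed from monolayer by a log2 change of -4.08 ± 0.43. Ccl1, Ccl11 and Ccl12 had at most 2 counts each. Cxcl9 (chr5:92321347-92328079), a gamma interferon-induced attractant next to Cxcl10, had 5 counts in the primary group, 44 in the monolayer group and 0 in the sphere group. The ratio of monolayer to primary counts was 10.6 (95% exact binomial interval 4.22 to 34.3). Cxcl11, which lies wholly inside Art3 as Cxcl10 does, and Cxcl13 were listed at 0. Over all 12 neighbours, 4 were tested: 2 rose and 2 fell in spheres against monolayer, 2 rose and 1 fell in spheres against primary cells, and 2 rose and 2 fell in monolayer against primary cells. Of all genes, 40.7 and 37.7%, 38.9 and 40.6%, and 34.4 and 36.9% were called higher and lower, in the same order. Ccl8 and Cxcl9 passed the low-count filter only through the monolayer, the group where they are high, so their levels are a description and the counts of neighbours support nothing further.

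**Figure D4:**
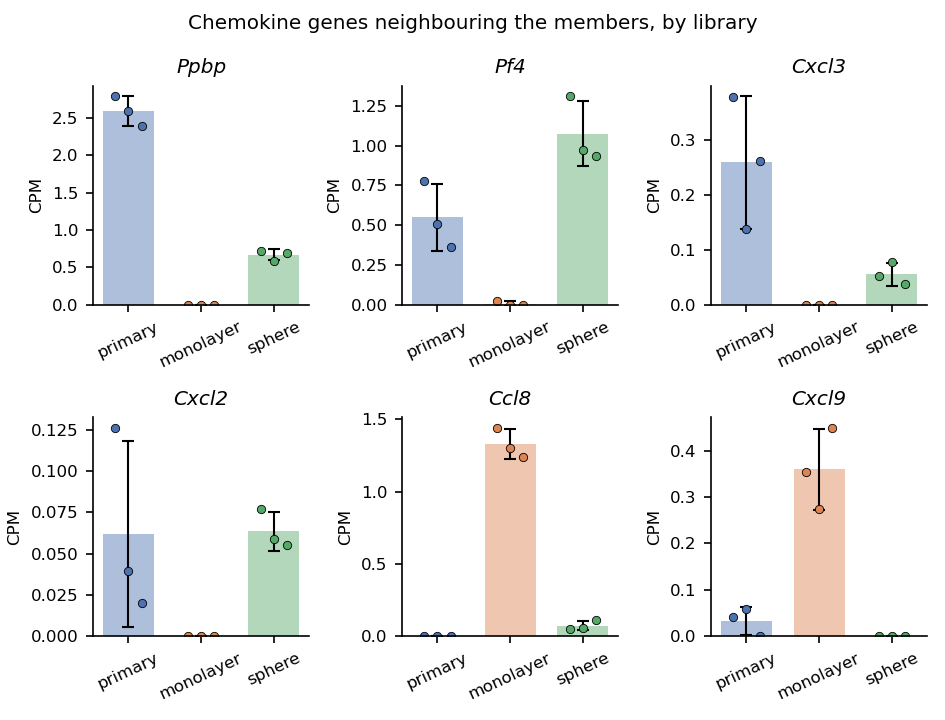
Level of 6 chemokine genes that neighbour the members, in CPM on a linear axis from 0 (a separate scale per gene); points are libraries, bars are means and whiskers are SD of 3 libraries. Ppbp, Pf4, Cxcl3 and Cxcl2 are at or near 0 in monolayer, whereas Ccl8 and Cxcl9 are highest there.

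Other chemokines that were tested changed in both directions in spheres. Of 16 listed, 6 were tested: 3 rose and 1 fell in spheres against monolayer, 2 rose and 1 fell in spheres against primary cells, and 1 rose and 3 fell in monolayer against primary cells. With total counts the last of these became 0 higher and 5 lower (median -0.65), and spheres against monolayer 4 higher and 1 lower. With TMM scaling the median changes were 0.25, 0.18 and -0.35 on the log2 scale, beside 0.04, -0.02 and -0.03 over all genes. The shares of all genes called higher and lower were 40.7 and 37.7%, 38.9 and 40.6%, and 34.4 and 36.9%, in the same order. Cx3cl1, the membrane-bound chemokine fractalkine, was at 13.1 ± 0.463 CPM in the primary group, 4.85 ± 0.0826 CPM in the monolayer group and 35.6 ± 1.96 CPM in the sphere group, where it exceeded primary cells by 1.45 ± 0.061 on the log2 scale (adjusted p = 1.18e-17). Cxcl16, the ligand of CXCR6, was at 1.92 ± 0.294, 1.6 ± 0.0845 and 0.845 ± 0.0835 CPM and fell in spheres by 1.18 against primary cells (adjusted p = 1.11e-05).

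Among other IL-6 family and colony-stimulating genes, 8 of 13 listed were tested. In spheres 3 rose and 5 fell against monolayer and 2 rose and 5 fell against primary cells, with medians of -1.18 and -1.06; in monolayer 3 rose and 3 fell against primary cells, with a median of -0.03. With total counts the monolayer split was 2 higher and 5 lower (median -0.33). With TMM scaling 40.7 and 37.7%, 38.9 and 40.6%, and 34.4 and 36.9% of all genes were called higher and lower in the 3 comparisons. Kitl, the KIT ligand that supports blood and pigment cell precursors, was at 32.4 ± 1.23 CPM in the primary group, 183 ± 12.2 CPM in the monolayer group and 1.52 ± 0.193 CPM in the sphere group. It thus rose in monolayer, by 2.50 ± 0.049 on the log2 scale (adjusted p = 2.01e-24), where Csf1 fell, and fell in spheres as Csf1 did (-4.40 ± 0.084 against primary cells, adjusted p = 2.24e-25). Osmr, the oncostatin M receptor, was at 35.3 ± 1.26, 33.5 ± 2 and 10.2 ± 0.479 CPM and fell in spheres by 1.80 against primary cells (adjusted p = 8.79e-20).

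Of 11 other alarm and immune cytokines, 6 were tested. In spheres 3 rose and 1 fell against monolayer and 3 rose and 2 fell against primary cells, and in monolayer 3 rose and 2 fell against primary cells, with medians of 0.31, 0.66 and 0.36. With total counts the monolayer split was 1 higher and 2 lower (median 0.06). With TMM scaling 40.7 and 37.7%, 38.9 and 40.6%, and 34.4 and 36.9% of all genes were called higher and lower in the 3 comparisons. Tgfb1, a broad suppressor of immune responses and inducer of matrix, was at 157 ± 0.738 CPM in the primary group, 210 ± 7.95 CPM in the monolayer group and 543 ± 8.95 CPM in the sphere group (log2 change 1.79 ± 0.033 SE for spheres against primary cells, adjusted p = 1.14e-25). Il18, which stimulates interferon production, was at 3.16 ± 0.383, 4.33 ± 0.573 and 0.031 ± 0.0381 CPM and fell in spheres by 6.41 against primary cells (adjusted p = 3.92e-15). It shares 18% of its span with another gene.

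The NF-kB components and feedback genes were more often lower than higher in spheres. All 16 were tested: 2 rose and 12 fell against primary cells, where 38.9% of all genes were called higher and 40.6% lower. Against monolayer 5 rose and 11 fell, or 5 and 8 with total counts, where 40.7% of all genes were called higher and 37.7% lower. Monolayer against primary cells gave 5 higher and 9 lower, or 3 and 12 with total counts. There 34.4% of all genes were called higher and 36.9% lower with TMM scaling. Nfkbia, the inhibitor that NF-kB itself induces, was at 71.7 ± 2.95 CPM in the primary group, 46.2 ± 1.19 CPM in the monolayer group and 20.6 ± 1.47 CPM in the sphere group, and Nfkbiz, a co-regulator of Il6, at 69.9 ± 2, 19 ± 0.287 and 21.1 ± 0.557 CPM. Vcam1, an adhesion molecule for leukocytes, was at 4.33 ± 0.492, 36.5 ± 2.06 and 0.218 ± 0.103 CPM, so it rose in monolayer (log2 change 3.08 ± 0.088, adjusted p = 6.85e-21) and fell in spheres (-4.36 ± 0.2 against primary cells, adjusted p = 5.55e-17). The median changes of the list were -1.06 for spheres against primary cells, -0.82 for spheres against monolayer and -0.16 for monolayer against primary cells.

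The STAT3 and SOCS genes that act below gp130 were mixed. Of 10 tested, 4 rose and 4 fell in spheres against either other group, and 2 rose and 4 fell in monolayer against primary cells. With total counts these became 6 and 2 for spheres against monolayer and 0 and 7 for monolayer against primary cells. Of all genes, 40.7 and 37.7% were called higher and lower in spheres against monolayer with TMM scaling, and 38.9 and 40.6% against primary cells. For monolayer against primary cells the shares were 34.4 and 36.9%. Socs3, the feedback inhibitor induced by STAT3, was at 131 ± 2.74 CPM in the primary group, 38 ± 2.61 CPM in the monolayer group and 15.5 ± 0.943 CPM in the sphere group, a fall of 3.07 ± 0.051 on the log2 scale for spheres against primary cells (adjusted p = 1.28e-26). Stat3 itself was at 179 ± 2.27, 216 ± 1.74 and 268 ± 1.29 CPM.

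The interferon regulators were more often higher than lower in monolayer, the group in which Cxcl9 had most counts. Of 10 tested, 8 rose and 1 fell in monolayer against primary cells, or 6 and 3 with total counts, where 34.4% of all genes were called higher and 36.9% lower. The median change was 0.79, or 0.49 with total counts. In spheres 3 rose and 6 fell against primary cells, and 1 rose and 7 fell against monolayer, or 4 and 6 with total counts, with medians of -0.82 and -1.56 (-1.25 with total counts for the latter). With TMM scaling 38.9 and 40.6% of all genes were called higher and lower in spheres against primary cells, and 40.7 and 37.7% against monolayer. Irf7, a driver of type I interferon genes, was at 26.5 ± 0.66 CPM in the primary group, 127 ± 5.5 CPM in the monolayer group and 1.36 ± 0.293 CPM in the sphere group. Stat2, a subunit of the interferon-activated factor, was at 96.5 ± 0.699, 346 ± 4.66 and 21 ± 0.835 CPM.

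Genes with the most similar profiles over the 9 libraries were found by Euclidean distance between centred log2 CPM. For Csf1 the nearest was Fhl1, a LIM-domain gene, at a distance of 0.39, with 166 ± 1.72 CPM in the primary group, 80.8 ± 2.54 CPM in the monolayer group and 2.82 ± 0.277 CPM in the sphere group, followed by Adamtsl1 (0.495) and Ppp1r14a (0.69). For Cxcl12 it was the apoptosis regulator Pawr, at 0.231, with 235 ± 5.85, 235 ± 15.4 and 23.4 ± 0.839 CPM, followed by Trerf1 (0.255) and Gng2 (0.31). Cxcl14 was nearest to Mgarp (0.516), Kif5c (0.733) and Lrrc4b (0.964), and Mgarp was at 4.73 ± 0.0433, 0.168 ± 0.0491 and 0.427 ± 0.0871 CPM. Cxcl1 was nearest to the skin protease gene Klk7 (0.778), which had no counts in either culture, then to Slc5a2 (0.861) and Jun (0.87). Jun, an AP-1 subunit that shares 21.6% of its span with another gene, was at 367 ± 4.87, 51.7 ± 1.86 and 49.3 ± 3.44 CPM. Cxcl5 was nearest to Catsperd (0.667), Hectd2 (0.729) and Cth (0.739), Ccl7 to Dnaaf3 (0.912), Prima1 (1.02) and Colca2 (1.08), and Lif to Phka1 (0.296), Zscan20 (0.319) and Zfp11 (0.342). Dnaaf3 shares 56.1% of its span with another gene and was at 0.0257 CPM in spheres, near the floor of 0.0208 CPM. The libraries share their group and depth, so a short distance describes these 9 libraries only.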

How the data were processed

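Gene expression was measured in 3 primary, 3 monolayer and 3 sphere libraries. The authors deposited whole-number counts per gene, not normalized, made with fastp 0.20.0, HISAT2 2.1.0 and featureCounts 1.6.0 on GRCm38, per the submitters' processing notes; the sources used here do not give the strand setting or annotation release. Stated gene lengths equal the whole span of each member, so intron reads were counted. Counts were tested in edgeR 4.0.16 (R 4.3.3): filterByExpr (minimum count 10), TMM scaling, 1 quasi-likelihood fit over 9 libraries, Benjamini-Hochberg adjustment over 15675 genes, two-sided, threshold 0.05; glmTreat tested changes beyond 2-fold. The biological coefficient of variation was 4.03%. A group at 0 was bounded by 3 counts over that group; other low ratios have 95% exact binomial intervals. Alternatives were DESeq2 1.42.0 size factors and Wald test, total counts, no filter, 2 groups only, a replicate block and leaving out each library. The fit was tested on simulated counts. Replicates of a group differed beyond sampling noise. Log2 CPM for profile distances used a prior count of 2. Gene overlaps and types came from the table and GENCODE M21. Named genes were all members, all listed receptors, genes from among the 4 per list lowest in adjusted p (some are not reported here), and the 3 nearest profiles per member; cluster neighbours with counts, other receptor and marker values, and Cxcl2 and Cxcl3 were named after their values were seen. Members, lists and tests were chosen with earlier results of these data known.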

Additional observations from a re-analysis of the deposited data

How the results depend on the processing

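Over the tested members, 240 of 249 recomputed changes kept direction and call. Scaling by total counts shifted the median gene by 0.30 on the log2 scale for spheres against monolayer and by -0.30 for monolayer against primary cells. It turned Lif in spheres against monolayer (0.03) and Cxcl12 in monolayer against primary cells (-0.25), and called 7 members in the latter comparison in place of 4. DESeq2 size factors put Cxcl12 there at 0.08 (adjusted p = 0.0496). With 1 library left out, Cxcl5 in spheres against primary cells ranged from -0.26 to 0.12, above 0 without the second primary library (0.12) or the second sphere library (0.11), and members called for spheres against primary cells ranged from 5 to 6. Fits of 2 groups alone filtered out Cxcl5 against the monolayer and Cxcl1 between the cultures, which gave no value. Same-numbered libraries did not deviate together (correlations -0.0098 to 0.0256 over 9 pairs). With the replicate number as a block, 12265, 12439 and 11111 genes changed, against 12287, 12472 and 11176 without it (spheres against monolayer, spheres against primary cells, monolayer against primary cells), and 5, 6 and 4 members were called in both. Group totals of at most 20 counts limit Il6 in all groups, Cxcl1 in both cultures, Cxcl5 in monolayer and Ccl7 in spheres. Csf1 and Cxcl12, by contrast, had 218084 and 31697 counts in total.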
